A study of Mus musculus with 12 samples.

Results

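The genes described here encode 9 transcription factors of the retinal pigment epithelium (RPE), the pigmented cell layer that lies against the photoreceptors. They are *Mitf*, *Tfec*, *Tfeb* and *Tfe3*, the 4 genes of the MiT family of basic helix-loop-helix leucine zipper proteins, the homeobox genes *Otx2*, *Otx1* and *Lhx2*, the SOX gene *Sox9* and the paired-box gene *Pax6*. They were taken by gene symbol and are 9 of the 28591 genes measured. RNA sequencing covered RPE from 6 WT and 6 rd6 mice at 1 mo of age. The WT mice were C57BL/6J, and the rd6 mice carried the genotype Mfrp rd6/rd6, a homozygous mutation in the gene of the membrane frizzled-related protein. The RPE of both eyes was combined in each library, taken from eyecups freed of the anterior segment and the neural retina. The study's methods name the mutant strain as Mfrp rd6/J and say that in some experiments it was crossed into an albino background. For these libraries the labels give neither the coat color nor the sex or the litter of the rd6 mice.

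The RPE recycles the visual chromophore, makes melanin and digests the outer-segment tips that photoreceptors shed. MITF and OTX2 are known to act together on the pigment genes, binding E-boxes of the M-box type and OTX sites, respectively, while SOX9 works with OTX2 and LHX2 on visual-cycle genes. LHX2 and PAX6 specify the eye field and the optic cup before the RPE is set apart. TFEB and TFE3 are known as activators of lysosome and autophagy genes that carry the CLEAR type of E-box, and TFEC is a relative found in the RPE and in macrophages.

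The promoters of *Mitf* and of genes these factors are known to bind show the recognition letters (RefSeq, GRCm38.p6, 250 bases before to 50 after each start, 5′ to 3′ on the strand of the gene). *Mitf* is printed with 3 of its starts, because the reads were counted per gene and cannot tell its isoforms apart. They lie at chr6:97806808-97807107, chr6:97929567-97929866 and chr6:97991533-97991832, all on the + strand, and the most downstream of them is that of the melanocyte isoform. *Tyr* (chr7:87493463-87493762, - strand), *Tyrp1* (chr4:80833963-80834262, + strand) and *Dct* (chr14:118052197-118052496, - strand) are the melanin synthesis genes with the extended M-box. *Rpe65* (chr3:159598931-159599230, + strand), *Lamp1* (chr8:13158911-13159210, + strand) and *Ctsa* (chr2:164833523-164833822, + strand, the downstream of 2 starts) stand for the visual cycle and for the lysosome. Capitals mark the M-box core CATGTG, the CLEAR E-box core CACGTG, the OTX core TAATCC and the cyclic AMP response element TGACGTCA, each read on both strands.
Mitf, start 1: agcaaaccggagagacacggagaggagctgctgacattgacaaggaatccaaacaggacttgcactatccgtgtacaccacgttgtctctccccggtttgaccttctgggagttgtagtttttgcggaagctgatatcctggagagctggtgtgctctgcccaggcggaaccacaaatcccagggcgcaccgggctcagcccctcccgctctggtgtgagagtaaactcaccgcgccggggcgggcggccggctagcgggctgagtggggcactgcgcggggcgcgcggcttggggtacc
Mitf, start 2: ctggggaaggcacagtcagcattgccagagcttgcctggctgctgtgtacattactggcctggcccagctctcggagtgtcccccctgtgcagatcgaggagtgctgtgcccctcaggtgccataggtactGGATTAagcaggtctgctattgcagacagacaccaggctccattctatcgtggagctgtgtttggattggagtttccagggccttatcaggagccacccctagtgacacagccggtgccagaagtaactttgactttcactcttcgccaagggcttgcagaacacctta
Mitf, start 3: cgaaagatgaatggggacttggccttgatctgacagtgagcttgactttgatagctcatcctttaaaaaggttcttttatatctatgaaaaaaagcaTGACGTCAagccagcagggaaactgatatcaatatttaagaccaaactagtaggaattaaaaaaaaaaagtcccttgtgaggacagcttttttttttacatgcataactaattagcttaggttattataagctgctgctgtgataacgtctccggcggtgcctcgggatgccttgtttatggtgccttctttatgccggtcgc
Tyr: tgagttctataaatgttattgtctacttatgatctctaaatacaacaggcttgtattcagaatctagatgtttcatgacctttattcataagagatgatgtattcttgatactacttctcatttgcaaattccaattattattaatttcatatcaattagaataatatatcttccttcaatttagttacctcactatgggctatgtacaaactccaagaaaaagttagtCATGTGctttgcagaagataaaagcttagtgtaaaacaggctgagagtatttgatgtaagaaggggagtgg
Tyrp1: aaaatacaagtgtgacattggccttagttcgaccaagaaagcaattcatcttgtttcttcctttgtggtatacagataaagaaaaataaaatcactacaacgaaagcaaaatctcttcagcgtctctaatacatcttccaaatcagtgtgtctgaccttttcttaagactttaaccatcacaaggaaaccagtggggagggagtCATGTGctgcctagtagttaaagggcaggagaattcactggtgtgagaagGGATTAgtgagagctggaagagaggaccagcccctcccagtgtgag
Dct: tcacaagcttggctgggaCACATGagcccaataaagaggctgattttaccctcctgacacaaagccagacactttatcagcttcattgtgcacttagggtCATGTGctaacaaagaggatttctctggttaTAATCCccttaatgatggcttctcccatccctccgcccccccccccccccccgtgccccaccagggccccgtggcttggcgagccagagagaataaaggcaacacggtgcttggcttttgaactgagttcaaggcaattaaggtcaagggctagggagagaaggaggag
Rpe65: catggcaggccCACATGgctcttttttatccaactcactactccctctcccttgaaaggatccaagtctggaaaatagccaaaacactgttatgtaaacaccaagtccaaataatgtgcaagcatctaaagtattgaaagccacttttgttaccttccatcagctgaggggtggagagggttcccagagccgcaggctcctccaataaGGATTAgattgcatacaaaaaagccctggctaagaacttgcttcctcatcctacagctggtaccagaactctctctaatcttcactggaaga
Lamp1: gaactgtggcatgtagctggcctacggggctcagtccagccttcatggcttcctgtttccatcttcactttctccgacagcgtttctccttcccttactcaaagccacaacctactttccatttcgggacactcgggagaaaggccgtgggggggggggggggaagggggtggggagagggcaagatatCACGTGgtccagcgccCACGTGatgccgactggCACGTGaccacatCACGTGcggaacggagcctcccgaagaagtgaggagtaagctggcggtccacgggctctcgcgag
Ctsa: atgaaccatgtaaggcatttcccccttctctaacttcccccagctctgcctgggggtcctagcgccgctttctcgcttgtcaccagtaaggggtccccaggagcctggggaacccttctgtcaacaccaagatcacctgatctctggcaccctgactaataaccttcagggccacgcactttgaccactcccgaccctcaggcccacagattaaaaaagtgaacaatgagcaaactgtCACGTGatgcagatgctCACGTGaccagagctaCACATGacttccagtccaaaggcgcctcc

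The first *Mitf* window held none of these letters, the second an OTX core and the third a cyclic AMP response element 153 bases before the start. The M-box core stood 21 bases before the start of *Tyr*, 46 before that of *Tyrp1* and both 150 and 232 before that of *Dct*, the farther one read on the opposite strand. The *Lamp1* window held the CLEAR core at 4 places. Short letters of this kind are common. Of 32851 mouse promoter windows of the same length, 14.2% held the M-box core, 7.15% the CLEAR core, 7.06% the OTX core and 1.79% the cyclic AMP response element. The extended M-box TCATGTGCT, which contains the core, was in 0.408% of them, among which are those of *Tyr*, *Tyrp1* and *Dct*. Promoter windows were found for 7 of the 9 factors, 17 windows in all. A match describes the letters in the window and is no evidence of binding.

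The reads counted on genes summed to between 28907262 and 33152725 per library, and the values below are read counts divided by the size factor of the library (normalized counts). *Mfrp* itself had 30132 to 45442 normalized counts in WT and 20442 to 29732 in rd6 libraries, with no overlap between the genotypes. A group of 3 libraries stood apart. Replicate 4 of WT had 69564 normalized counts of *Krt12*, a keratin of the corneal epithelium, and replicates 1 and 5 of rd6 had 5990 and 1216, against at most 134 in any of the other 9. Results for the 9 factors that change without these 3 libraries are given with and without them. The RPE markers *Rpe65*, *Rlbp1* and *Ttr* were among the abundant RNAs of every library, whereas the RPE channel gene *Best1* had only 9.33 to 48.7 normalized counts, and 4 of 8 RPE markers were called lower in rd6, beside 11.6% of all tested genes (6 without the 3 libraries, in a fit that called 10.8% of all tested genes higher and 11.6% lower). Markers of microglia and macrophages were called higher in rd6 for 11 of 12 genes, beside 11.4% of all tested genes, with a median log2 fold change of 3.24 over the list. Their summed level was 14148 to 20394 in WT and 24897 to 39069 in rd6, and most of the WT sum was *Csf1r*, a receptor gene of macrophages, which had 12921 to 18698 normalized counts in WT and 16200 to 20851 in rd6 and was the marker not called (log2 fold change 0.12, q = 0.385 in limma). RNA of this bulk tissue cannot tell fewer cells of a type from less RNA per cell.

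Between rd6 and WT, *Lhx2* and *Sox9* RNA was lower and *Tfeb* RNA higher, while *Mitf*, *Tfe3*, *Otx2*, *Otx1* and *Pax6* did not pass the test and *Tfec* was too scarce to be tested. The test was limma on log2(normalized count + 1), run on genes that averaged 10 normalized counts or more, and a difference was called where the Benjamini-Hochberg adjusted p (q) lay below 0.05. Fold changes and standard errors (SE) are on that log2 scale, as rd6 minus WT. Of the 8 factors tested, 1 was called higher and 2 lower, beside 11.4% called higher and 11.6% called lower among all 17768 genes tested. All 3 changes were smaller than the further limit the study set on the size of a change, 0.81 on the log2 scale, which 4.69% of the tested genes passed upward and 2.12% downward together with the limit on q. In *Lhx2* the 6 rd6 libraries did not overlap the 6 WT libraries, as was so in 5.67% of all tested genes (5.77% did not overlap in the higher direction).

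**Figure D1:**
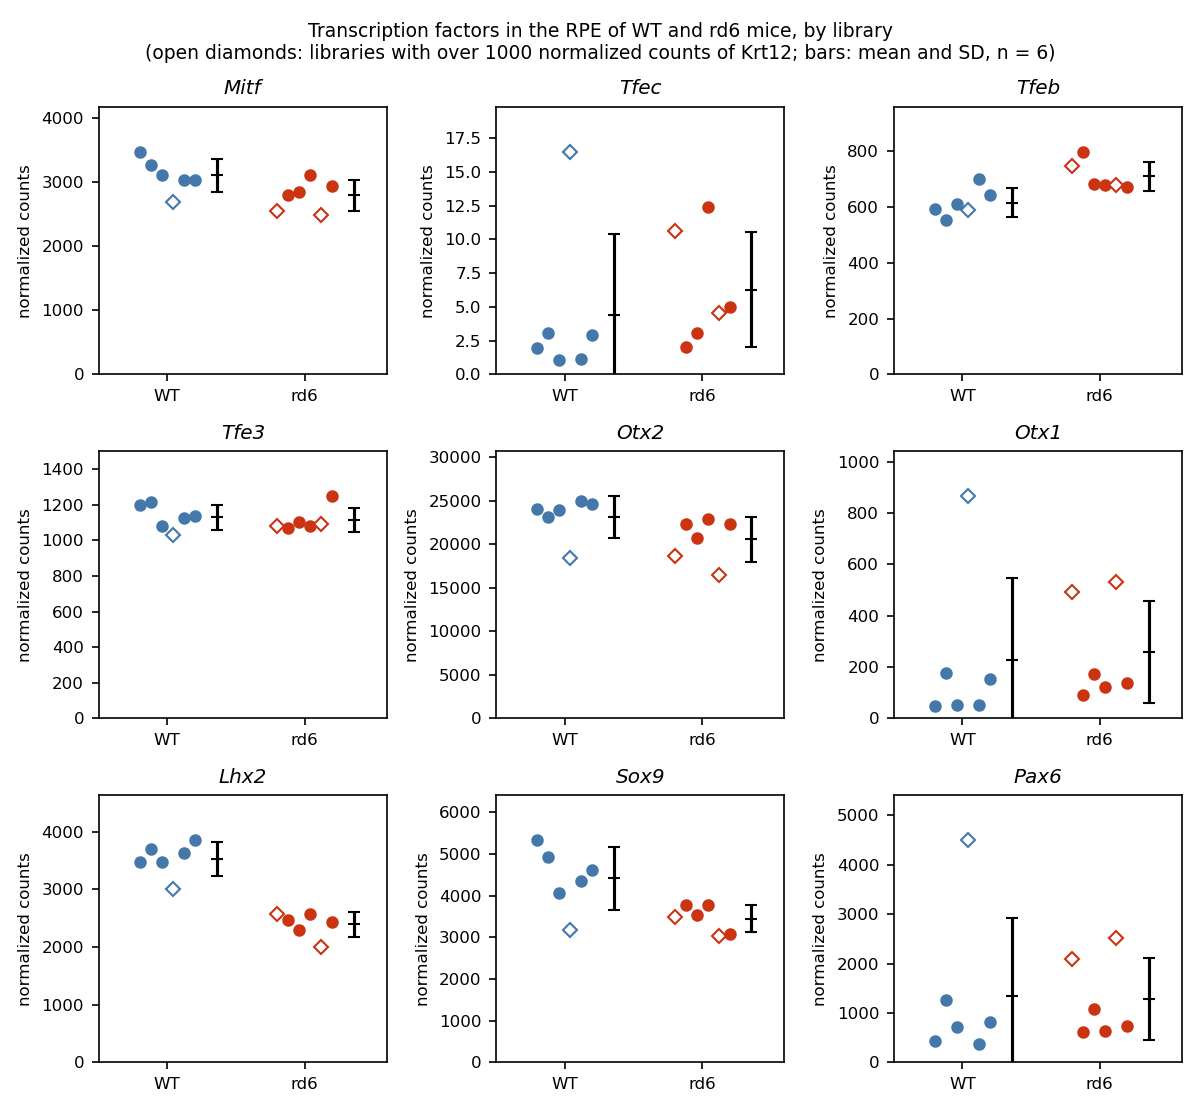
Normalized counts (vertical axis, from 0) of the 9 factors in each of the 6 WT (blue) and 6 rd6 (red) libraries, with the mean and SD of each genotype as black bars, cut at 0. Open diamonds mark the 3 libraries with over 1000 normalized counts of *Krt12*, which are the highest for *Pax6* and *Otx1* and the lowest for *Otx2* and *Mitf*, and *Lhx2* is the factor whose genotypes do not overlap.

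The levels of the 9 factors span several orders of magnitude in WT. Exon lengths are of all annotated exons of a gene merged over its isoforms, not of the isoforms present here. The order of the factors and the MiT family shares below depend on these lengths. Per kilobase of exon, *Otx2* stood at 5487 ± 573 normalized counts (SD, n = 6), *Sox9* at 1068 ± 182, *Lhx2* at 802 ± 66.1 and *Mitf* at 501 ± 42.1. They were followed by *Tfe3* at 122 ± 7.48, *Pax6* at 116 ± 135, *Tfeb* at 109 ± 9.04, *Otx1* at 41.7 ± 59.0 and *Tfec* at 0.793 ± 1.07. Neighbors in this order were separated by more than the range of their libraries between *Otx2* and *Sox9*, between *Lhx2* and *Mitf*, between *Mitf* and *Tfe3* and between *Otx1* and *Tfec*. *Sox9* and *Lhx2* overlapped in WT, and so did *Tfe3*, *Pax6* and *Tfeb*, with *Otx1* overlapping all 3 of these. In rd6 the level of *Lhx2* per kilobase was 544 ± 49.2, with a range of 456 to 586 that overlapped that of *Mitf* (402 to 503) and lay below that of *Sox9* (736 to 915). Before division by length, *Otx2* ranked 127th from the top of all tested genes by its mean over the 12 libraries.

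**Figure D2:**
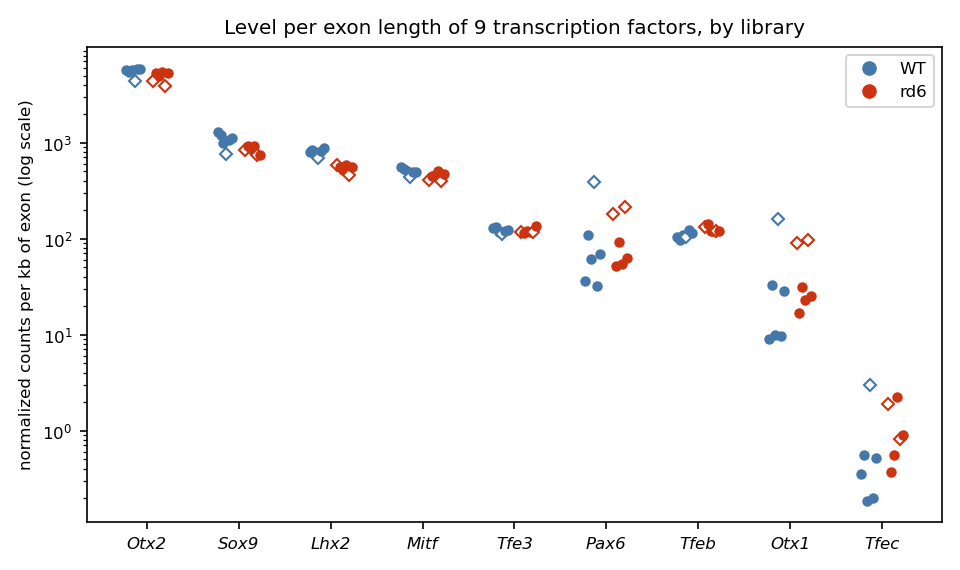
Normalized counts per kilobase of exon (vertical axis, log scale) of the 9 factors in each library, ordered by the WT mean, with WT in blue, rd6 in red and the 3 libraries with corneal keratin as open diamonds. *Otx2*, at 5487 in WT, stands above *Sox9*, *Lhx2* and *Mitf*, and *Tfec* lies below all others.

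*Mitf* (ENSMUSG00000035158, chr6:97807052-98021349, + strand, GRCm38), the central activator of the melanin genes, had a lowest, median and highest value of 2698, 3078 and 3477 normalized counts in WT and of 2492, 2826 and 3118 in rd6. The genotypes overlapped, with replicates 1 and 2 of WT at the top and replicates 5 and 1 of rd6, followed by replicate 4 of WT, at the bottom. The log2 fold change was -0.15 (SE 0.07, 95% interval -0.30 to -0.0033) with q = 0.133 in limma. Without replicate 4 of WT it was -0.19 with q = 0.0442, and without all 3 libraries with corneal keratin -0.12 with q = 0.148. Melanocytes of the choroid and macrophages also express *Mitf*. Of the 6 melanocyte markers tested, 3 were called lower in rd6, beside 11.6% of all tested genes, and the summed level of the list was 8463 to 9707 in WT and 5648 to 6565 in rd6. The defining markers differed widely in level, from 3285 to 6714 normalized counts over all libraries for *Sox10* to 1.81 to 36.3 for *Pax3* and 0 to 7.73 for *Foxd3*. The part of these cells in the level of *Mitf* was not tested.

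*Tfeb* (ENSMUSG00000023990, chr17:47737030-47792419, + strand), an activator of lysosome genes that is regulated by nutrient supply, had 554, 601 and 701 normalized counts in the lowest, median and highest WT library and 672, 680.4 and 798 in rd6. It was called higher in rd6, with a log2 fold change of 0.21 (SE 0.07, 1.15-fold) and q = 0.0421 in limma. The genotypes overlapped through replicate 5 of WT, which lay above 4 of the rd6 libraries, whereas the other 5 WT libraries lay below all of rd6. The call stood close to the limit. It was lost without the 3 libraries with corneal keratin (log2 fold change 0.19, q = 0.128), and was made in 4 of the 12 fits that left out 1 library (q between 0.0155 and 0.0939). *Tfe3* (ENSMUSG00000000134, chrX:7762560-7775202, + strand), which shares targets with *Tfeb*, had 1029, 1129.8 and 1214 normalized counts in WT and 1069, 1087 and 1252 in rd6. Its genotypes overlapped almost entirely, and the log2 fold change was -0.02 (95% interval -0.14 to 0.10, q = 0.81 in limma).

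*Tfec* (ENSMUSG00000029553, chr6:16833373-16898441, - strand) was at the limit of what this depth could show. The libraries had 2, 3, 1, 17, 1 and 3 reads in WT replicates 1 to 6 and 11, 2, 3, 13, 5 and 5 reads in rd6 replicates 1 to 6. Of the libraries with more than 3 reads, 1 was of WT and 4 were of rd6, and the WT library with 17 reads was replicate 4, the library richest in corneal keratin. With a mean of 5.36 normalized counts it was not tested in the fit above, and a fit without the limit on low values gave a log2 fold change of 0.70 (95% interval -0.46 to 1.85) with q = 0.459 in limma. Macrophages also express *Tfec*, and their markers were higher in rd6 as given above. Their part in these few reads was not tested.

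Within the MiT family, *Mitf* made up most of the RNA per kilobase of exon. Its share of the sum of the 4 genes was 68.4% ± 1.68 (SD, n = 6) in WT and 64.6% ± 2.10 in rd6, and that of *Tfeb* was 14.9% ± 1.57 and 18.0% ± 1.74. *Tfe3* made up 16.7% ± 0.487 and 17.3% ± 1.12. These shares were not tested, and those of *Mitf* (66.6% to 70.6% in WT, 62.1% to 67.8% in rd6) and *Tfeb* (12.9% to 16.8% and 16.1% to 20.0%) overlapped between the genotypes. *Tfec* was below 1% of the sum in every library.

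*Otx2* (ENSMUSG00000021848, chr14:48657677-48673819, - strand), which keeps up RPE and photoreceptor gene expression in the adult eye, had 18388, 23939 and 24905 normalized counts in the lowest, median and highest WT library and 16428, 21494 and 22892 in rd6. The WT libraries lay above all of rd6 except replicate 4, which lay between replicates 1 and 5 of rd6, the other libraries with corneal keratin. The log2 fold change was -0.18 (SE 0.10, 95% interval -0.39 to 0.03) with q = 0.22 in limma. Without the 3 libraries the genotypes no longer overlapped, with 23139 to 24905 in WT and 20693 to 22892 in rd6, as was so, in the lower direction, in 11.4% of all tested genes. The log2 fold change was then -0.13 with q = 0.0794. Rods also express *Otx2*, and 3 of 11 rod markers were called lower in rd6 by limma (10 at an unadjusted p below 0.05), 1 by edgeR and 3 by DESeq2, while without the 3 libraries limma called 10 lower. In both limma fits 11.6% of all tested genes were called lower. The summed level of the rod markers was 25229 to 62699 in WT and 11959 to 18025 in 5 of the rd6 libraries. The exception was replicate 5 of rd6, at 57218, which had the lowest *Otx2* of all 12. The part of rod RNA in *Otx2* was not tested. *Otx2* shares 154 bases of exon with *Otx2os1* on the opposite strand and 168 with *Gm49154* on its own, and the study's methods give no strand setting for the counting beyond calling its parameters standard, so reads there are uncertain.

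*Otx1* (ENSMUSG00000005917, chr11:21994764-22002897, - strand), the relative of *Otx2* that patterns the developing eye and brain, varied among libraries far more than between genotypes. It had 49.3, 104 and 868 normalized counts in WT and 91.7, 154 and 530.0 in rd6. The 3 highest were the libraries with corneal keratin, replicate 4 of WT at 868 and replicates 5 and 1 of rd6 at 530.0 and 492, and in none of the other 9 was *Otx1* above 178. The log2 fold change was 0.72 with a 95% interval from -0.79 to 2.23 (q = 0.494 in limma), which leaves room for a large change in either direction. It was 0.20 in edgeR (q = 0.89) and 0.19 in DESeq2 (q = 0.903), 0.62 without the 3 libraries (q = 0.309 in limma), 1.29 without replicate 4 of WT alone (q = 0.0909 in limma) and 0.16 with the corneal marker level as a covariate (q = 0.724 in limma).

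*Pax6* (ENSMUSG00000027168, chr2:105668900-105697364, + strand), a factor of the eye field that the adult cornea and inner retina also express, followed the same 3 libraries. It had 374, 769 and 4507 normalized counts in the lowest, median and highest WT library and 609, 916 and 2517 in rd6. Replicate 4 of WT was highest at 4507, followed by replicates 5 and 1 of rd6 at 2517 and 2092. Without them *Pax6* ranged from 374 to 1265 in WT and from 609 to 1090 in rd6. The log2 fold change was 0.27 (95% interval -0.97 to 1.50, q = 0.771 in limma) and turned to -0.07 in edgeR (q = 0.956) and to -0.08 in DESeq2 (q = 0.952), so its direction was not determined. The 6 corneal markers reached a summed level of 214936 in replicate 4 of WT and of 53754 and 89432 in replicates 1 and 5 of rd6, against 315 to 14767 in the other 9. With the corneal marker level as a covariate the log2 fold change of *Pax6* was -0.17 (q = 0.72 in limma). Amacrine and other inner retinal neurons also express *Pax6*, and the summed level of their 7 markers was 13443 to 19786 in WT and 14305 to 19523 in rd6. None of these 7 and none of the 6 corneal markers was called by limma, edgeR or DESeq2 or had an unadjusted p below 0.05 in limma, while without the 3 libraries 3 of the 7 were called lower in rd6 by limma, beside 11.6% of all tested genes.

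**Figure D3:**
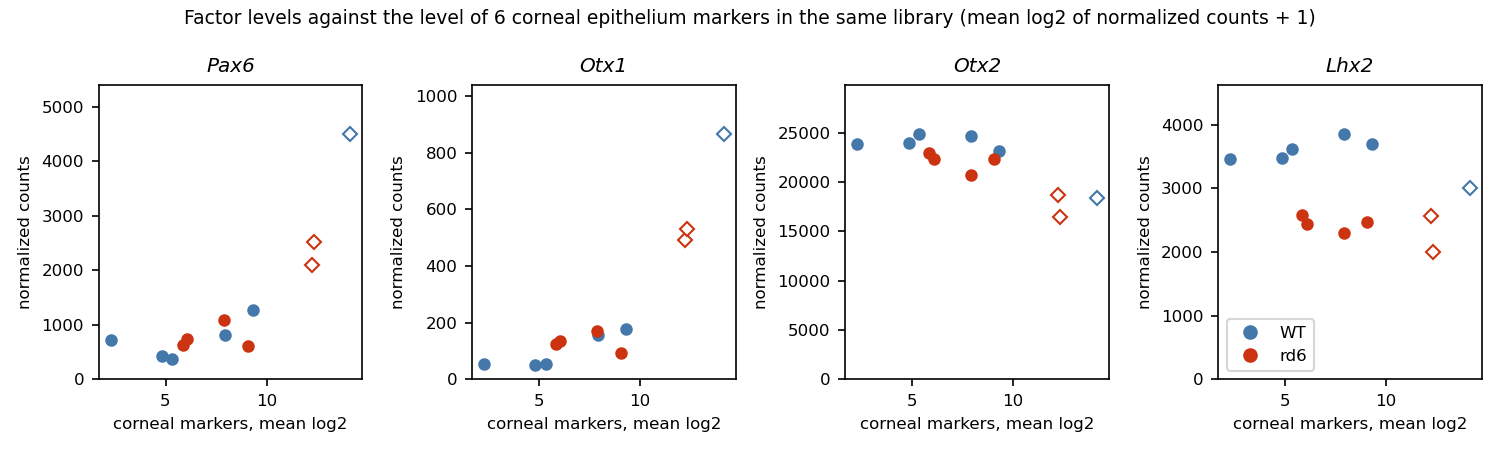
Normalized counts of *Pax6*, *Otx1*, *Otx2* and *Lhx2* (vertical axes, from 0) against the mean log2(normalized count + 1) of 6 corneal epithelium markers in the same library (horizontal axis), with WT in blue, rd6 in red and the 3 libraries with over 1000 normalized counts of *Krt12* as open diamonds. *Pax6* and *Otx1* are high and *Otx2* is low in these 3, whereas for *Lhx2* the 6 rd6 libraries (2004 to 2575) lie below the 6 WT libraries (3013 to 3863) at any level of the markers.

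*Lhx2* (ENSMUSG00000000247, chr2:38339281-38369733, + strand), a LIM homeobox factor required to form the optic cup, showed the clearest difference of the 9. It had 3013, 3554 and 3863 normalized counts in the lowest, median and highest WT library and 2004, 2457 and 2575 in rd6. No rd6 library reached the lowest WT library. The mean fell from 3524 ± 290 (SD, n = 6) to 2392 ± 216, a log2 fold change of -0.56 (SE 0.07, 95% interval -0.72 to -0.40, 1.47-fold lower) with q = 0.000137 in limma. It was called in all 12 fits that left out 1 library (q between 3.76e-05 and 0.000562), and without the 3 libraries with corneal keratin the log2 fold change was -0.57 (q = 3.21e-05). The exons of *Lhx2* share no base with those of another annotated gene.

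*Sox9* (ENSMUSG00000000567, chr11:112782224-112787760, + strand), an HMG-box factor that acts on visual-cycle genes, had 3179.7, 4483 and 5345 normalized counts in WT and 3042, 3515 and 3782 in rd6. It was called lower in rd6, with a log2 fold change of -0.34 (SE 0.11, 1.27-fold lower) and q = 0.0414 in limma. The genotypes overlapped through replicate 4 of WT alone, which at 3179.7 lay above 2 rd6 libraries and below the other 4. Without that library the log2 fold change was -0.43 with q = 0.0022, and without all 3 libraries with corneal keratin it was -0.39 with q = 0.0092, and the genotypes no longer overlapped, with 4063 to 5345 in WT and 3078 to 3782 in rd6, as was so, in the lower direction, in 11.4% of all tested genes. With the corneal marker level as a covariate the call was lost (-0.30, q = 0.0521 in limma). With all 12 libraries the call stood close to the limit, and 3 of the 12 fits without 1 library made it.

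Müller glia also express *Lhx2* and *Sox9*. Of 7 Müller markers 1 was called lower in rd6 and 1 higher, beside 11.6% and 11.4% of all tested genes. These counts lay near the background. *Glul*, a glutamine synthetase gene, was lower (log2 fold change -0.23, q = 0.00938 in limma) and *Dkk3*, a secreted Wnt modulator, higher (0.98, q = 0.0411). Of the 7, 6 had a negative log2 fold change, with a median of -0.24 and a lowest value of -0.84 for the potassium channel gene *Kcnj10* (q = 0.146). A pair of them was called lower without the 3 libraries with corneal keratin, beside 11.6% of all tested genes. They were *Glul* and *Car14*, a carbonic anhydrase gene that the RPE also expresses. *Dkk3* was still called higher in that fit (1.16, q = 0.00148), beside 10.8% of all tested genes. With all 12 libraries its call was made by limma and by neither edgeR nor DESeq2, which called none of the 7 higher. The summed level of the 7 markers, most of it from *Glul* and *Car14*, was 111489 to 121999 in WT and 95975 to 112295 in rd6. *Glul* alone had 53679 to 57266 and 43940 to 50105, while *Aqp4*, which defines these cells, was at 44.3 to 618 and 46.8 to 204. The part of Müller glia in the *Glul* RNA was not tested. Connective tissue can express *Sox9*, and its 6 markers summed to 9891 to 15552 in WT and 5469 to 14918 in rd6, with no call by limma, edgeR or DESeq2 and 1 of them lower at an unadjusted p below 0.05 in limma. The part of these cells in the lower *Lhx2* and *Sox9* was not tested.

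**Figure D4:**
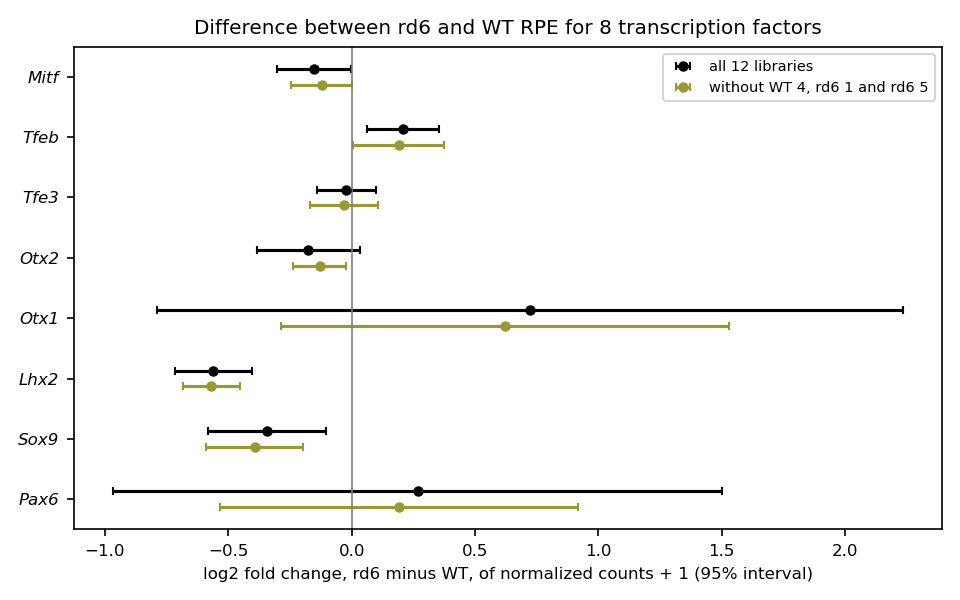
Log2 fold change, rd6 minus WT, of the 8 tested factors with its 95% interval (horizontal axis) in all 12 libraries (black) and without the 3 libraries with corneal keratin (olive). *Lhx2* stays at -0.56 and -0.57, the interval of *Sox9* narrows, and those of *Otx1* and *Pax6* include 0 in both.

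Ratios within a library compare the factors without a size factor and were not tested. *Lhx2* stood at 15.3 ± 0.840 normalized counts per 100 of *Otx2* in WT and at 11.7 ± 1.10 in rd6 (SD, n = 6), with ranges of 14.5 to 16.4 and 10.9 to 13.8 that did not overlap. *Mitf* per 100 of *Otx2* was 13.5 ± 1.10 and 13.7 ± 0.859, and *Sox9* 19.0 ± 2.26 and 16.9 ± 1.78, both with overlap. Set against *Rlbp1*, the retinaldehyde-binding protein gene of the RPE, which was itself lower in rd6, *Otx2* was 13.4 ± 0.551 per 100 in WT and 16.3 ± 0.328 in rd6, and *Mitf* was 1.81 ± 0.208 and 2.22 ± 0.109, neither with overlap. *Lhx2* per 100 of *Rlbp1* was 2.05 ± 0.166 and 1.91 ± 0.158, and *Sox9* was 2.56 ± 0.363 and 2.75 ± 0.268, both with overlap. The share of all genes whose ratios to *Otx2* or *Rlbp1* would not overlap was not computed, so these separations are no result about the factors.

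The genes whose log2 values ran most alike with each factor over the 12 libraries, after the mean of each genotype was subtracted, were sought among the 12873 genes that averaged 100 normalized counts or more. *Lhx2* ran with *Extl3* (Pearson r = 0.95, Spearman rho = 0.93), *Leprotl1* and *Man1b1*, and *Sox9* with *Zfyve27* (0.95 and 0.96), *Chd3* and *Erlec1*. *Mitf* ran with *Parp11* (0.98 and 0.94), *Shtn1* and *Tmem53*, and *Otx2* with *Plekhb2* (0.99 and 0.97), *Rtn3* and *Sulf1*. *Otx1* and *Pax6* shared the same leading genes, *Rab27b* and *Cadm1*, followed by *Col4a6* for *Otx1* and *Slit2* for *Pax6* (r between 0.97 and 0.98). *Tfeb* ran with *Fam187b* (0.91 and 0.78), *Mustn1* and *Myl4*, and *Tfe3* with *Pter* (0.97 and 0.83), *Gpc1* and *Fzd4*. The libraries share their depth and their content of other cells, and for *Pax6*, *Otx1*, *Otx2* and *Mitf* the 3 libraries with corneal keratin stand at one end of the range, so these values are a description without a test.

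Genes that these factors are known to act on were taken in 3 lists, for pigment, RPE function and lysosomes. Of 15 pigment genes, 2 were called higher and 2 lower, with a median log2 fold change of 0.15, beside 11.4% higher, 11.6% lower and a median of 0.0049 over all tested genes, so with all 12 libraries the counts lay near the background and are no result about the list. *Dct*, a melanin synthesis enzyme, had 48293, 54534 and 71015 normalized counts in the lowest, median and highest WT library and 68257, 89391 and 101961 in rd6, a log2 fold change of 0.59 (SE 0.12, q = 0.00374 in limma). *Gpr143*, a melanosome receptor, was higher by 0.49 (q = 0.00999). *Slc45a2*, a melanosome transporter, fell by 0.78 (984 to 1545 normalized counts in WT, 628 to 844 in rd6, q = 0.000327), and *Rab38*, which moves melanosome cargo, fell by 0.55 (q = 0.00166). They were the 2 of the 15 without overlap between the genotypes, beside 5.67% of all tested genes in the lower direction. *Tyr* and *Tyrp1*, which carry the same extended M-box as *Dct*, had log2 fold changes of 0.12 (q = 0.449) and 0.18 (q = 0.302). Without the 3 libraries with corneal keratin 4 pigment genes were called higher, with *Trpm1* (0.64) and *Rab27a* (0.34) added, beside 10.8% of all tested genes. Without replicate 4 of WT alone 5 were called higher, beside 13.7% of all tested genes, so the count of higher pigment genes depended on these libraries.

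Of 14 RPE function genes, 7 were called lower, beside 11.6% of all tested genes, with a median log2 fold change of -0.38. *Rdh10*, a retinol dehydrogenase, had 85194, 108124 and 114783 normalized counts in the lowest, median and highest WT library and 32442, 46737 and 52459 in rd6, a log2 fold change of -1.25 (SE 0.11, q = 7.51e-06 in limma). *Lrat*, which esterifies retinol, fell by 0.98 (q = 0.000158), *Rgr*, a retinal-binding opsin, by 0.88 (q = 0.00113) and *Rpe65*, the isomerase of the visual cycle, by 0.79 (q = 0.002). None of these 4, which were named for their large changes, overlapped between the genotypes, and they were the only ones of the 14 that did not, beside 5.67% of all tested genes in the lower direction. *Ttr*, the transthyretin gene, had a log2 fold change of 0.25 (q = 0.302). Without the 3 libraries with corneal keratin 10 were called lower, beside 11.6% of all tested genes.

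Of 26 CLEAR genes, 6 were called higher and 3 lower, beside 11.4% and 11.6% of all tested genes, with a median log2 fold change of 0.05. *Gpnmb*, a glycoprotein of melanosomes and macrophages, had 12657, 14333 and 21697 normalized counts in the lowest, median and highest WT library and 26455, 32104 and 35993 in rd6, a log2 fold change of 1.02 (SE 0.13, q = 0.00013 in limma). *Ctsa*, a lysosomal carboxypeptidase, was higher by 0.73 (q = 3.47e-05) and *Ctsb*, a lysosomal protease, by 0.55 (q = 0.00127). *Lamp1*, a lysosome membrane protein, was higher by 0.29 (q = 0.00335). The genes called lower were *Wipi1*, which acts in autophagosome formation (-0.49, q = 0.00134), and *Flcn* (-0.39, q = 0.0147) and *Fnip1* (-0.25, q = 0.0461), which encode a complex that restrains TFEB and TFE3. Without the 3 libraries with corneal keratin 5 were called higher and 3 lower, beside 10.8% and 11.6% of all tested genes. *Fnip1* was not among them (-0.25, q = 0.0731). The CLEAR core was in the promoter windows of 9 of the 23 genes for which windows were found, beside 7.15% of all mouse windows. *Lamp1*, *Ctsa* and *Fnip1* were the only called genes among these 9. The windows of *Gpnmb*, *Wipi1* and *Flcn*, which were also called, did not hold it. Macrophages express many of these lysosome genes, and their markers were higher in rd6 as given above. Their part in the CLEAR counts was not tested.

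**Figure D5:**
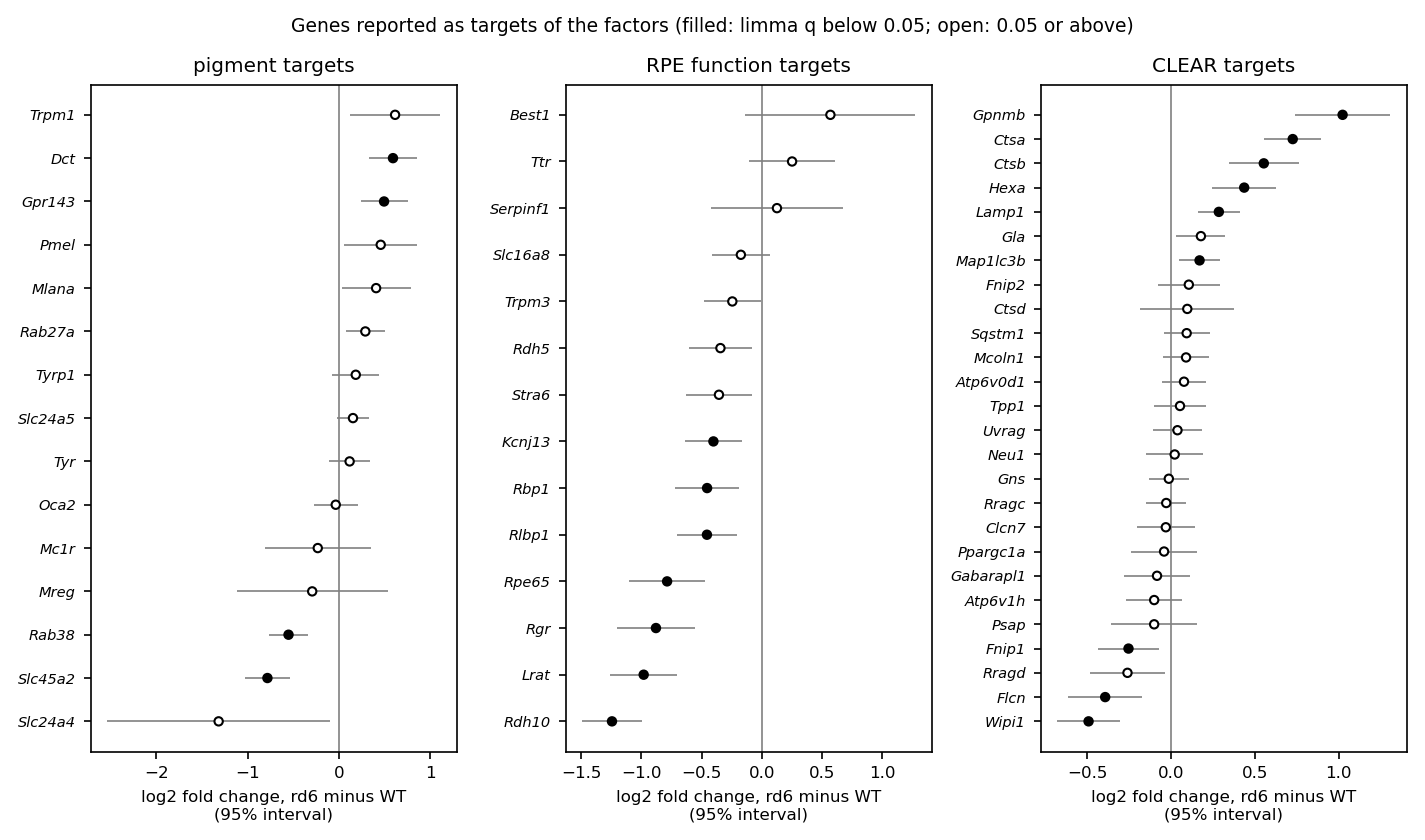
Log2 fold change, rd6 minus WT, with its 95% interval (horizontal axes) of 15 pigment, 14 RPE function and 26 CLEAR genes, filled where the limma q was below 0.05. The pigment and CLEAR panels have filled points on both sides of 0, and all 7 filled points of the RPE function panel are below 0.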

How the data were processed

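RNA of the RPE of 6 WT and 6 rd6 mice was measured as stranded total-RNA libraries. Per the study's methods the authors aligned the read pairs to mm10, counted them on genes with Rsubread and normalized them with DESeq2. The deposited values are a normalized signal, obtained by the authors by dividing each read count by a size factor for its library. The table also holds results of the authors' DESeq2 comparison, namely deposited log2 fold changes, test statistics (a score) and p-values, none of which were used. No version of these tools is given in the sources used here. Of 28596 entries, 5 repeats of 4 identifiers were dropped, which left 28591 genes. Whole read counts were recovered from the steps of the values (tolerance 0.001).

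The main test was limma 3.58.1 (R 4.3.3; lmFit and eBayes with a trend) on log2(value + 1), fitted to 17768 genes averaging 10 or more, with genotype alone in the model and calls at an adjusted p below 0.05. Fold changes on this scale understate those of low genes. In all 66 pairs of libraries the counts differed beyond sampling noise (smallest chi-square per gene 9.45), so none was counted as a copy. With animals not identified in the labels, p-values measure the spread between these libraries. The alternatives were pseudocounts of 0.1 and 10, no filter or 10 counts in every library, TMM and upper-quartile rescaling, edgeR 4.0.16 with TMM or RLE and DESeq2 1.42.0 on the recovered reads, a block for the replicate number and leaving out each library. Leaving out the 3 libraries with over 1000 normalized counts of *Krt12*, and the corneal marker level as a covariate, were chosen after seeing the data. The scripts were tested on simulated data.

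The factors, the lists of targets and markers and the tests were chosen with earlier results of these data known. Named are all 9 factors, the 4 called targets of each list with the largest change, genes printed with a sequence, defining markers and the 3 genes most alike with each factor. A gene that this rule selects is not reported here, and its list was counted without it. *Mfrp*, *Csf1r*, *Car14*, *Dkk3*, *Kcnj10*, *Flcn*, *Fnip1*, *Trpm1*, *Rab27a*, *Ttr*, the genes that share exons with *Otx2* and the factors *Tead1*, *Yap1*, *Lef1*, *Nrl*, *Crx*, *Nr2e3*, *Rax* and *Six3* were added after their values were seen. Coordinates are from GENCODE M21 (GRCm38, 28510 of 28591 genes matched), and promoter windows from RefSeq (GRCm38.p6).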

Additional observations from a re-analysis of the deposited data

Results flagged for a closer look

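In each genotype the highest and lowest library of the 9 factors were compared with the other 5 by Dixon's criterion at its 95% level, which chance passes in about 1 in 20 groups. Of the 18 groups examined 5 passed. Of these, 4 are replicate 4 of WT, the library with 69564 normalized counts of *Krt12*. It was highest for *Pax6* (4507 normalized counts, against 374 to 1265 in the other WT libraries), for *Otx1* (868, against 49.3 to 178) and for *Tfec* (16.5, against 1.04 to 3.10), and lowest for *Otx2* (18388, against 23139 to 24905). The other is replicate 6 of rd6, which was highest for *Tfe3* at 1252 normalized counts, against 1069 to 1103 in the other rd6 libraries.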

How the results depend on the processing

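*Lhx2* was called lower under all alternatives, with log2 fold changes from -0.60 to -0.51, while the calls of *Sox9* and *Tfeb* depended on the setting. The number of factors called higher was 0 in limma without the filter on low values, beside 6.74% of the 28591 genes then tested. It was also 0 without the 3 libraries with corneal keratin, beside 10.8% of all tested genes. In each of these fits 1 factor was higher at an unadjusted p under 0.05. On all 12 libraries edgeR and DESeq2 each called 1 higher, and neither was run without the 3. The number called lower was 1, *Lhx2*, without the filter, with upper-quartile rescaling and with the corneal marker level as a covariate, where *Sox9* had q = 0.0534, 0.0691 and 0.0521. Of all genes, these fits called 1865 (6.52%) lower of 28591, and 1598 and 2134 of 17768. Without the 3 libraries the pigment genes called higher were 4. Over the fits that left out 1 library, the factors called higher were 0 to 1 and those called lower 1 to 3 (3 without replicate 4 of WT, where *Mitf* joined). The ranges were 2 to 5 pigment genes higher and 2 to 2 lower, 0 to 0 RPE function genes higher and 7 to 10 lower, 5 to 6 CLEAR genes higher and 2 to 3 lower, and 1631 to 2428 of all genes higher and 1593 to 2293 lower. *Pax6* turned to -0.069 in edgeR with TMM, to -0.080 in edgeR with RLE, to -0.080 in DESeq2 and to -0.17 with the covariate, and *Tfe3* to 0.017 with upper-quartile rescaling (q = 0.864). The cause of these shifts was not tested. In a fit with a block for the replicate number, the factors called higher were 0 (1 at an unadjusted p under 0.05) and those called lower 1, with q = 0.00443 for *Lhx2*, 0.0856 for *Sox9* and 0.131 for *Tfeb*. Of all tested genes that fit called 8.18% higher and 8.38% lower. Deviations of the same-numbered libraries correlated at -0.25 on average (-0.74 to 0.31 over 6 pairs), and no WT library correlated best with the rd6 library of its own number. These correlations cannot show whether same-numbered libraries were prepared together, which the labels do not give. At 28907262 to 33152725 reads per library, *Tfec* was too scarce for a test, and the spread of *Pax6* and *Otx1* gives them the widest intervals of the 8 tested factors.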

Other observations

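Of 13 factors reported to act in the RPE, 2 were called lower in rd6 and 1 higher, beside 11.6% and 11.4% of all tested genes, so the counts lay near the background and are no result about the list. The genes called lower were *Tead1* and *Yap1*, the DNA-binding factor and coactivator of the Hippo pathway, and *Lef1*, a nuclear effector of Wnt signaling, was called higher. *Tead1* had 3804, 4108 and 4639 normalized counts in the lowest, median and highest WT library and 2534, 3001 and 3094 in rd6 (log2 fold change -0.53, SE 0.07, q = 0.000117 in limma). *Yap1* had 5907, 6353 and 6939 in WT and 3554, 4652 and 5064 in rd6 (-0.50, SE 0.08, q = 0.000713). *Lef1* was low, at 24.2, 37.9 and 60.2 in WT and 64.9, 94.0 and 146 in rd6 (1.35, SE 0.25, q = 0.00186). In all 3 the genotypes did not overlap, as was so in 5.67% of all tested genes in the lower and 5.77% in the higher direction.

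Of 14 factors of the eye field and the neural retina, 13 could be tested and 1 was called lower, beside 11.6% of all tested genes, which is no result about the list. It was *Nrl*, which sets the rod fate (log2 fold change -1.10, q = 0.0459 in limma). The call was lost without replicate 4 of WT (q = 0.0718) and was stronger without all 3 libraries with corneal keratin (-1.37, q = 0.0036), while edgeR called none of the list lower and DESeq2 1. *Nrl* had 374 to 1915 normalized counts in rd6, the highest of which was replicate 5, the library with rod markers at the WT level. Without the 3 libraries with corneal keratin *Crx* (-1.21) and *Nr2e3* (-1.10), both photoreceptor factors, were also called lower, and *Rax*, an eye field factor, was called higher (1.10, q = 0.0164), which makes 3 lower and 1 higher beside 11.6% and 10.8% of all tested genes. *Six3*, another eye field factor, had the highest mean of the 14 genes, at 3335 to 4283 normalized counts in WT and 2745 to 3833 in rd6 (-0.20, q = 0.111).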
